A study of Mus musculus with 36 samples.

Results

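The transcripts described here are those of 10 genes that mark endothelial cells, the cells that line blood vessels: Pecam1, Cdh5, Kdr, Emcn, Cldn5, Tie1, Tek, Egfl7, Esam and Sox17. They were chosen by name, with earlier results of these data known. Each was found once among the 48795 mouse gene identifiers of a table of counts per gene. The level of each gene was read in every library as CPM (the gene's counts scaled to a common library total), because such transcripts may come from endothelial cells left in a culture as well as from a response of the cultured cells.

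The libraries are stranded mRNA libraries of cultured mouse lung pericyte-like cells, cells that resemble the mural cells around small vessels. Lung digest cells had been grown on gelatin, depleted of cells carrying CD31, CD45 (leukocytes) or CD326 (epithelium), and then selected for PDGFRβ, a receptor of pericytes and fibroblasts. CD31 is the product of Pecam1, so the first of the 10 genes is also the gene of the depletion marker. After further culture in serum, the cells were exposed for 6 or 24 h to bronchoalveolar lavage fluid (BALF) from injured lungs, to BALF from uninjured lungs, or to media only, in which saline took the place of BALF. Each was mixed 1 to 1 with medium low in serum. Each treatment at each time had 3 female and 3 male libraries, numbered 1 to 3, which made 12 groups and 36 libraries, 6 for each treatment and time. The labels do not give the kind of injury, the strain or the age of the mice, nor whether replicates are different mice or different culture wells. The p-values therefore measure the spread between these samples only.

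Endothelial cells hold together at junctions built of CD31, VE-cadherin and claudin 5, and they respond to VEGF and to angiopoietins through the receptor tyrosine kinases VEGFR2, TIE1 and TIE2. In the lung, capillary endothelium and pericytes share a basement membrane, and pericytes make the TIE2 ligand angiopoietin 1. Many genes restricted to endothelium are switched on by transcription factors of the ETS family, which bind DNA around a GGAA core.

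Upstream sequence is shown for 3 members that behaved differently across the libraries described below: Emcn, whose level followed the mean of the other members closely, Kdr, which also differed between treatments, and Cldn5, which followed the other members least. Cldn5 had only 262 counts over all 36 libraries, and the part of counting error in this was not tested. RefSeq start sites (build GRCm38.p6) were at hand for 6 of the 10 members, and the 250 bases before each start site are given 5′ to 3′ on the gene's strand, with every GGAA or its reverse complement TTCC in capitals. The Emcn window is chr3:137340828-137341077 on the plus strand, the Kdr window chr5:75978456-75978705 on the minus strand and the Cldn5 window chr16:18776597-18776846 on the plus strand.
Emcn: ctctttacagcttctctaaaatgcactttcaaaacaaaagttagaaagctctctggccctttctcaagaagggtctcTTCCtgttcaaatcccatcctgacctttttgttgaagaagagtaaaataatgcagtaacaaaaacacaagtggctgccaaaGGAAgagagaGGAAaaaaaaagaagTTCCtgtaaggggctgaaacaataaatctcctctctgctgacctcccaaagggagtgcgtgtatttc
Kdr: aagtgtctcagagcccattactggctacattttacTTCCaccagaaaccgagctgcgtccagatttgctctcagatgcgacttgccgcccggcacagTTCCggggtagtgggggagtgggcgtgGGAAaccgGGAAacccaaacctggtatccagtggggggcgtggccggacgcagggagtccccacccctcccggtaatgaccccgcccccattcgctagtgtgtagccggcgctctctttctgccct
Cldn5: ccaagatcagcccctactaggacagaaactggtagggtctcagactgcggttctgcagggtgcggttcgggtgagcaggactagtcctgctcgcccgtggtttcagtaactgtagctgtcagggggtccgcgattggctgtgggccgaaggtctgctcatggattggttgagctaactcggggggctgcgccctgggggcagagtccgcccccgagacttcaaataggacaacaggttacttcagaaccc
The Emcn and Kdr windows each held 4 matches, and the Cldn5 window held none. Of 32851 mouse windows of the same length, 93.4% held at least 1 match and 33.4% held 4 or more, while 6.55% held none. The Tie1 window held 7 matches, the Tek window 2, and the 3 Egfl7 windows 5, 3 and 1. The Tie1 window lies largely, and the 3 Egfl7 windows wholly, within the annotated genes at the positions given below. The start site of the Egfl7 window with 1 match was not matched to an annotated transcript of the gene. A match is a run of letters and not a measured binding site.

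Total counts ran from 17134840 to 35991683 per library, and the 10 genes together took 0.000987 to 0.0209% of them. Xist and the Y-linked gene Ddx3y matched the sex label in all 18 female and all 18 male libraries. Of the 36 libraries, 4 carry description numbers from another range (called late here, the other 32 early). They are replicate 3 of the male groups of uninjured BALF at 24 h and of media at both times, and replicate 2 of the female group of media at 24 h, and what the number marks is not stated. None of them is of injured BALF. Of 8 epithelial genes, Epcam, Cdh1, Sftpc, Sftpb and Nkx2-1 were at or near 0, while Scgb1a1 reached 0.836 CPM, Aqp5 3.1 CPM and Krt18 16.1 CPM. Their sum was 9.70 to 17.7 CPM in the early male libraries numbered 3 and 0.956 to 6.17 CPM in the other 33. Of 12 pericyte markers, Pdgfrb lay at 256 to 791 CPM. Cd248, Mcam, Cspg4 and Des averaged 366, 139, 112 and 49.7 CPM. Notch3, Rgs5, Anpep and Cox4i2 averaged 24.1, 7.59, 2.86 and 1.61 CPM. Abcc9 and Kcnj8 averaged 0.183 and 0.136 CPM, and Higd1b had 0 counts in all 36 libraries.

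All 10 genes were detected and passed the low-count filter, but at very different levels. Levels of different genes can be set side by side only per length of transcript, here CPM per kilobase of annotated exons, averaged over the 36 libraries. Cdh5 stood highest at 4.40 CPM per kilobase, then Emcn at 4.11, Pecam1 at 2.40, Esam at 2.17, Egfl7 at 1.19, Tie1 at 1.15, Kdr at 0.513, Tek at 0.389, Cldn5 at 0.189 and Sox17 at 0.1003. The range over libraries of each gene in this order overlapped that of the next. Cldn5, with 262 counts over all 36 libraries, and Sox17, with 438, were counted so thinly that their values in a single library carry a large counting error. In the other 8 genes the lowest library held 10 to 42 counts.

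Summed over the 10 genes, the level differed by up to 21.2-fold between libraries, and libraries of 1 treatment spread over most of that range. The lowest, median and highest sums at 6 h were 30.1, 76.1 and 209 CPM in injured BALF, 32.03, 77.4 and 209 CPM in uninjured BALF, and 10.2, 55.9 and 169.9 CPM in media. At 24 h they were 31.1, 76.4 and 200.1 CPM in injured BALF, 9.87, 59.0 and 151 CPM in uninjured BALF, and 12.4, 31.9 and 138 CPM in media. The ranges of the 3 treatments overlapped at both times.

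By sex and number, a split made after the values were seen, the sums fell into bands, narrow in male libraries and wide in female ones. The 3 early male libraries numbered 3 held 200.1 to 209 CPM, in injured BALF at both times and in uninjured BALF at 6 h. The 12 male libraries numbered 1 or 2 held 29.0 to 37.99 CPM over all 3 treatments and both times. The 6 early female libraries numbered 3 held 101 to 169.9 CPM, and the 11 early female libraries numbered 1 or 2 held 67.9 to 151 CPM. The female bands thus overlapped, and female media 24 h replicate 1 held 112 CPM. The 151 CPM library is female uninjured BALF 24 h replicate 1, whose counterpart numbered 3 held 101 CPM. Whether the numbers of these libraries were exchanged was not tested. The 4 late libraries held 9.87 to 18.2 CPM, below every early one. In bulk samples such as these, fewer endothelial cells, less endothelial RNA per cell and less of these transcripts in the cultured cells themselves cannot be told apart.

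**Figure D1:**
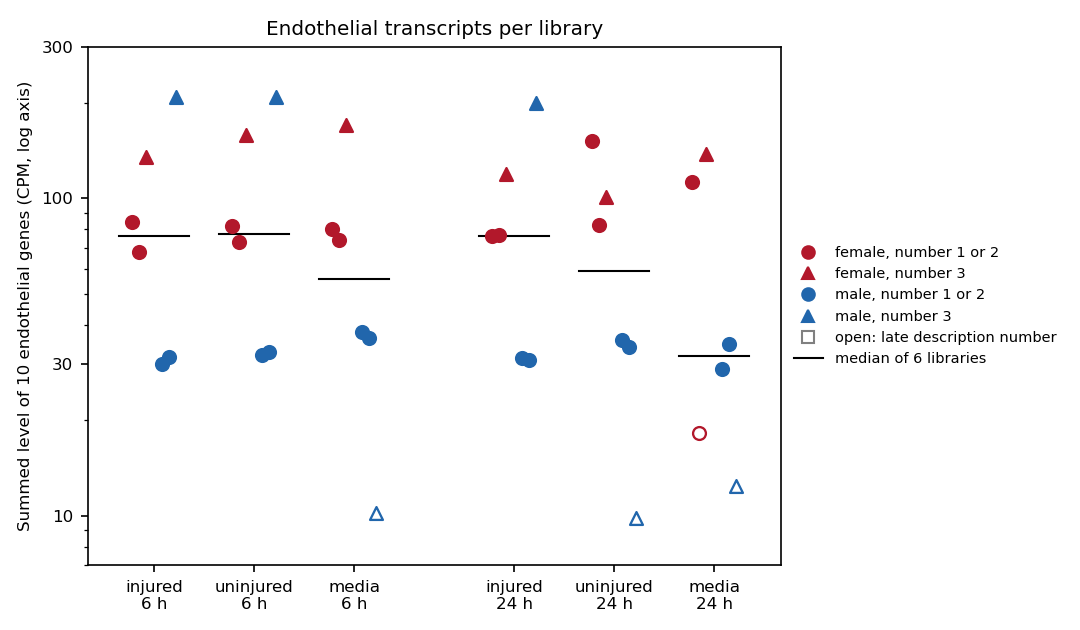
Summed level of the 10 endothelial genes (CPM, log axis) in each of the 36 libraries, by treatment and time. Colour gives the sex, triangles mark libraries numbered 3, open symbols the 4 late description numbers, and the line the median of 6 libraries. Male libraries numbered 1 or 2 sit at 29.0 to 37.99 CPM under every treatment, and the early male libraries numbered 3 at 200.1 to 209 CPM.

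Pecam1 (chr11:106654217-106750628, minus strand, GRCm38 as are all gene positions below) encodes CD31, an adhesion molecule of endothelial junctions and of platelets and leukocytes. Its lowest, median and highest levels at 6 h were 6.13, 15.8 and 35.2 CPM in injured BALF, 5.72, 15.5 and 32.4 CPM in uninjured BALF, and 0.729, 9.90 and 34.03 CPM in media. At 24 h they were 5.88, 14.5 and 36.8 CPM in injured BALF, 1.2, 11.1 and 32.9 CPM in uninjured BALF, and 1.67, 5.63 and 27.1 CPM in media. The treatments overlapped, and the highest library of injured BALF at each time was the male one numbered 3, while the lowest library of media at each time was a late one. The 12 male libraries numbered 1 or 2 lay between 5.59 and 6.71 CPM.

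Cdh5 (chr8:104101625-104144511, plus strand) encodes VE-cadherin, the adhesion protein of endothelial adherens junctions. It lay at 7.15 to 48.5 CPM in injured BALF, 6.94 to 45.3 CPM in uninjured BALF and 0.875 to 24.3 CPM in media at 6 h, and at 6.94 to 50.3, 2.59 to 36.9 and 2.04 to 36.2 CPM in the same order at 24 h. Emcn (chr3:137341067-137432185, plus strand) encodes endomucin, a mucin-like protein on the surface of venous and capillary endothelium, and its window shown above held 4 GGAA cores. It reached 75.7 CPM in injured BALF and 73.3 CPM in uninjured BALF at 6 h, both in the male library numbered 3, and 66.5 CPM in media at 6 h, in the female library numbered 3. Its lowest value was 0.863 CPM, in the late male library of uninjured BALF at 24 h.

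Esam (chr9:37528078-37538319, plus strand), an adhesion molecule of endothelial tight junctions and platelets, stood apart in the early male libraries numbered 3. These held 24.0 CPM in injured BALF at 6 h, 22.5 CPM in injured BALF at 24 h and 26.5 CPM in uninjured BALF at 6 h. The other 33 libraries held 0.525 to 12.5 CPM. Cldn5 (chr16:18776847-18778262, plus strand) encodes claudin 5, which seals endothelial tight junctions. It lay at 0 to 0.480 CPM in the 18 libraries of 6 h and reached 0.908 CPM in injured BALF, 1.48 CPM in uninjured BALF and 1.25 CPM in media at 24 h, each in 1 female library.

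Among the receptors, Tie1 (chr4:118471191-118490061, minus strand), an orphan receptor that modulates TIE2, followed the junction genes. It lay at 2.13 to 12.1 CPM in injured BALF, 2.51 to 12.9 CPM in uninjured BALF and 0.657 to 11.3 CPM in media at 6 h. Tek (chr4:94739289-94874976, plus strand), which encodes the angiopoietin receptor TIE2, had a narrower range of 0.375 to 5.33 CPM over all libraries. Its highest values were 5.33 CPM in female media 24 h replicate 3 and 4.40 CPM in female uninjured BALF 24 h replicate 1, and its early male libraries numbered 3 lay at 2.24 to 2.71 CPM.

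Kdr (chr5:75932827-75978458, minus strand) encodes VEGFR2, the main signalling receptor for VEGF-A on endothelium, and was the only member called with injured BALF against media, as tested below. At 6 h its lowest, median and highest levels were 2.36, 2.85 and 5.38 CPM in injured BALF, 1.79, 2.86 and 9.29 CPM in uninjured BALF, and 4.19, 8.47 and 11.4 CPM in media. At 24 h they were 1.91, 2.40 and 4.45 CPM in injured BALF, 1.99, 4.55 and 5.44 CPM in uninjured BALF, and 2.73, 5.55 and 6.31 CPM in media. At 6 h only male library 3 of injured BALF reached into the media range, whose lowest value, 4.19 CPM, came from the late male library, while the other 5 media libraries held at least 7.33 CPM. In the male libraries numbered 1 and 2 at 6 h, in which the other 9 genes summed to 27.3 to 30.5 CPM in every treatment, Kdr held 2.45 and 2.53 CPM in injured BALF, 1.79 and 2.18 CPM in uninjured BALF, and 7.83 and 9.12 CPM in media.

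Kdr also took different shares of the 10-gene sum. Its median share at 6 h was 3.75% in injured BALF, 4.47% in uninjured BALF and 17.04% in media. At 24 h it was 3.05% in injured BALF, 9.38% in uninjured BALF and 16.4% in media. In the 4 late libraries, where the other members were lowest, Kdr made up 20.1 to 41.2% of the sum, against 1.60 to 25.1% in the 32 early ones.

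**Figure D2:**
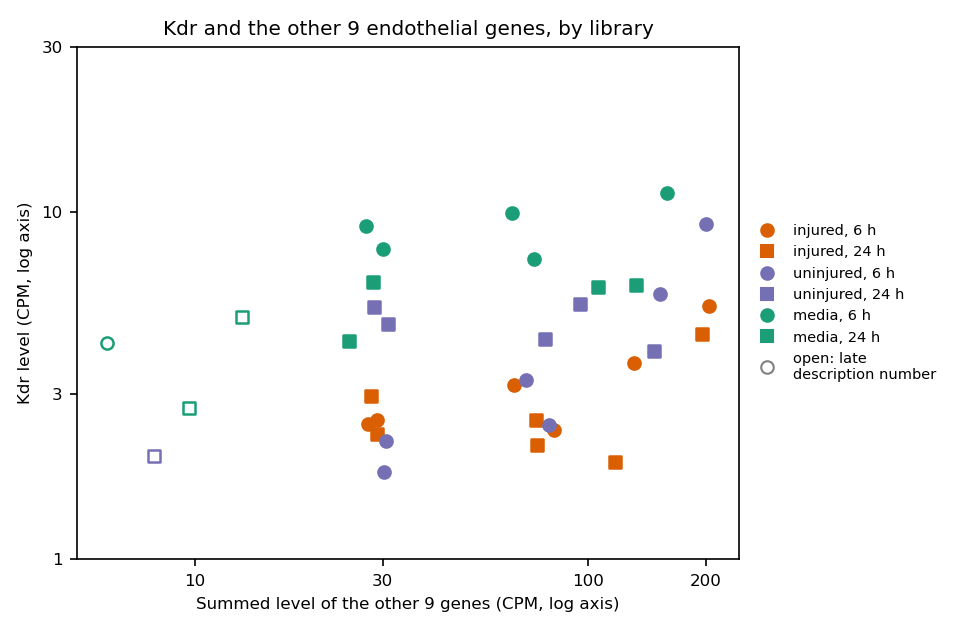
Level of Kdr (CPM, log axis) against the summed level of the other 9 endothelial genes (CPM, log axis) in each of the 36 libraries. Colour gives the treatment, circles 6 h, squares 24 h, and open symbols the 4 late description numbers. At a like level of the other 9 genes, injured BALF at 6 h lies below media, as in the male libraries numbered 1 and 2 (2.45 and 2.53 CPM in injured BALF, 7.83 and 9.12 CPM in media).

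Egfl7 (chr2:26580014-26593120, plus strand) encodes a secreted protein of endothelial cells. It lay at 1.62 to 5.79 CPM in injured BALF, 2.51 to 7.96 CPM in uninjured BALF and 0.766 to 9.40 CPM in media at 6 h, and at 2.63 to 8.54, 1.57 to 10.3 and 1.33 to 10.5 CPM in the same order at 24 h. Sox17 (chr1:4490931-4497354, minus strand), a transcription factor of arterial endothelium, lay at 0.0391 to 1.32 CPM over all libraries. The 18 female libraries had a median of 0.716 CPM of Sox17 and the 18 male ones 0.195 CPM.

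**Figure D3:**
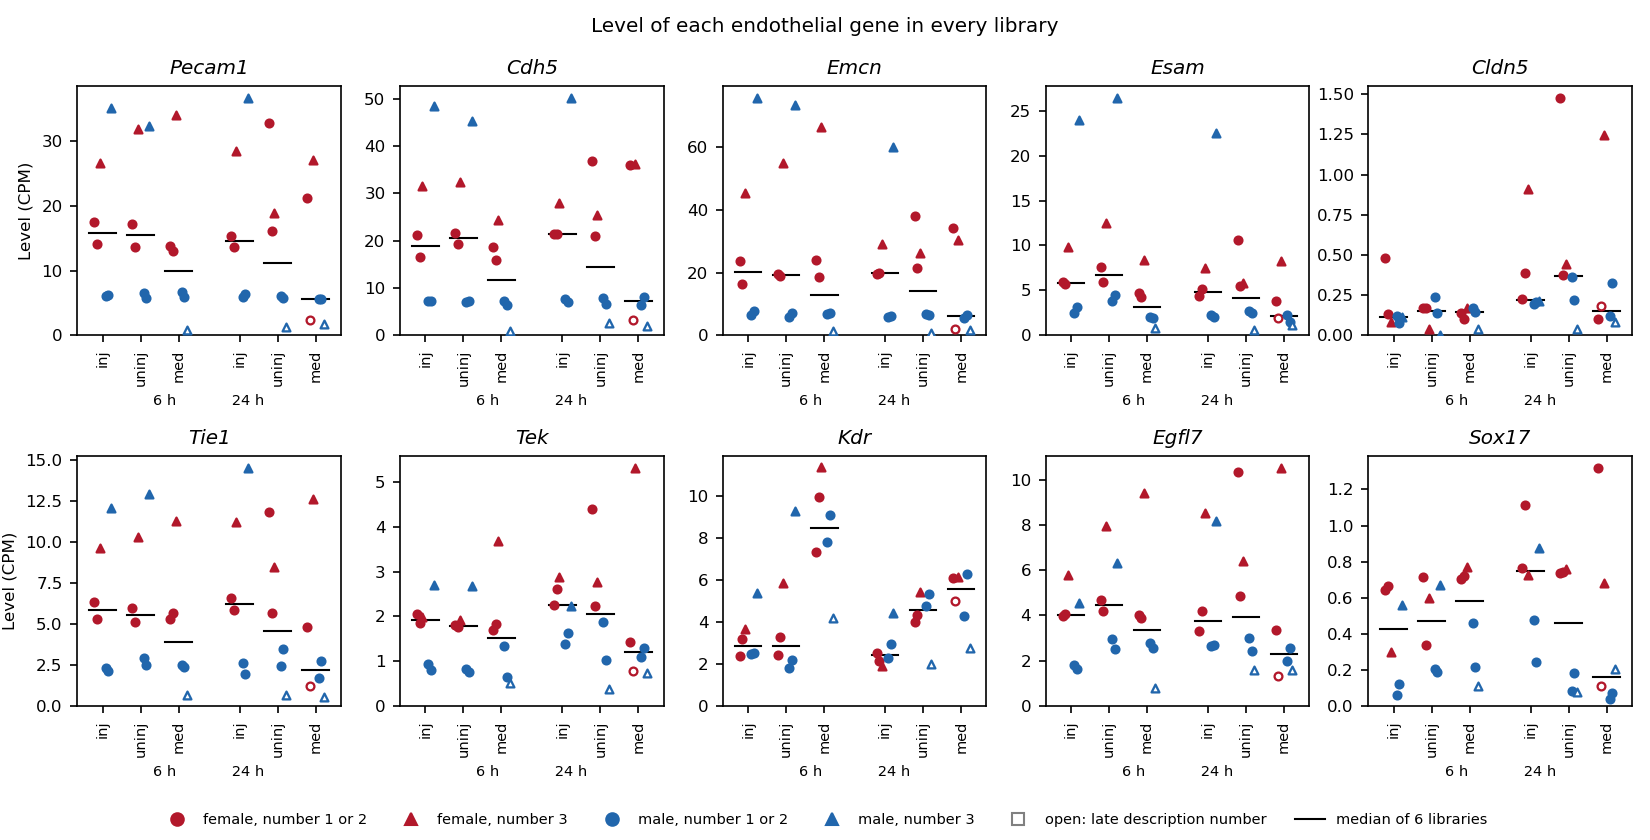
Level (CPM, linear axis from 0) of each of the 10 genes in every library, by treatment (inj, injured BALF; uninj, uninjured BALF; med, media) at 6 h and 24 h, with symbols for sex, library number and description number and a line at the median of 6 libraries. Pecam1, Cdh5, Emcn, Esam and Tie1 are highest in the male library numbered 3 in both fluids at 6 h and in injured BALF at 24 h, while for Kdr all 6 libraries of injured BALF lie below 5 of the 6 of media at 6 h.

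Setting injured against uninjured BALF separates what injury adds from what lavage fluid does by itself. None of the 10 genes was called at either time. A gene was called when edgeR's quasi-likelihood test, adjusted by Benjamini-Hochberg over all 15901 tested, gave a value under 0.05, which called 3.43% of all genes at 6 h and 4.42% at 24 h. At 6 h the 10 log2 fold changes ran from -0.42 to 0.26, with standard errors of 0.33 to 0.74, and 0 members passed an unadjusted p under 0.05. DESeq2 called 0 at both times. Between libraries of the same sex and number at 6 h, the sum was lower in injured than in uninjured BALF in 5 of 6 pairs. The widest of these was female number 3, at 134.9 CPM in injured BALF and 158.6 CPM in uninjured BALF, and the exception was female number 1, at 84.3 CPM in injured BALF and 81.9 CPM in uninjured BALF. Esam and Egfl7 were lower in injured BALF in 6 of 6 pairs, and with a replicate block their log2 fold changes were -0.28 (adjusted p = 0.862) and -0.40 (adjusted p = 0.669). At 24 h, 8 of 10 log2 fold changes were positive, with a median of 0.72 against -0.0038 over all genes, and Sox17 (1.17 ± 0.50, adjusted p = 0.209) and Kdr (-0.74 ± 0.33, adjusted p = 0.246) passed an unadjusted p under 0.05. Male uninjured BALF at 24 h has the late library as number 3 (9.87 CPM), while male injured BALF has an early one (200.1 CPM), and the 8 positive values lie beside that difference, whose part in them was not tested. With a term for the late numbers and a replicate block together, a fit chosen after the data were seen, the log2 fold change of Kdr at 24 h was -0.999 (adjusted p = 0.00946). The numbers do not pair these samples (r -0.671 to 0.704 between libraries of the same number), and the call was absent with the block alone (-0.76, adjusted p = 0.214), with the late term alone (-0.84, adjusted p = 0.105) and without the late libraries (-0.89, adjusted p = 0.133). The effect of injured against uninjured BALF at 24 h did not pass a test of difference from that at 6 h for any member (0 of 10 by edgeR and by DESeq2, 0 at an unadjusted p under 0.05; 0.239% of all genes called).

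Against media, Kdr was lower with injured BALF at both times and with uninjured BALF at 6 h. In injured BALF at 6 h, Kdr had a log2 fold change of -1.31 ± 0.33 (SE), or 0.403 of its media level, with an adjusted p of 0.00393, and it was the only 1 of the 10 genes called, where 25.2% of all genes were called. This held when any 1 of the 12 libraries was left out (log2 fold changes -1.54 to -1.19, adjusted p 0.0023 to 0.015) and without the 4 late libraries (-1.46, adjusted p = 0.00151). At 24 h Kdr fell with injured BALF too (log2 -0.998 ± 0.335, adjusted p = 0.0297), again the only 1 called, beside 23.7% of all genes. That call was lost when any 1 of 6 libraries was left out, namely female injured BALF replicates 2 and 3, male injured BALF replicates 1 and 2, female media replicate 1 or male media replicate 2, with an adjusted p of 0.0556 to 0.0937. Without the 4 late libraries the fold change at 24 h was -1.19 (adjusted p = 0.0137).

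With uninjured BALF at 6 h, 2 of the 10 genes were called against media, beside 18.4% of all genes. Kdr fell (log2 -0.98 ± 0.33, adjusted p = 0.0349) and Esam rose by 1.75 ± 0.60 (adjusted p = 0.0393). The Kdr call was lost without any 1 of female or male uninjured BALF replicates 1 and 2, female media replicates 2 and 3 or male media replicates 1 and 2 (adjusted p 0.0599 to 0.101). Leaving out male uninjured BALF replicate 3, whose Kdr level of 9.29 CPM was the highest with either fluid, took it to -1.54 (adjusted p = 0.000543). The Esam call was lost without any 1 of 9 of the 12 libraries (female uninjured BALF replicates 1 and 3, male uninjured BALF replicate 3 and all 6 of media), and without male uninjured BALF replicate 3 the value was 1.03 (adjusted p = 0.245). It was also lost without the 4 late libraries (1.58, adjusted p = 0.0946), while Kdr without them stood at -1.12 (adjusted p = 0.0158). With libraries numbered 1 and 2 of each group summed to 1, none of these Kdr and Esam calls passed (adjusted p 0.0921, 0.227, 0.362 and 0.119 in the order given).

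At 24 h, 0 of 10 genes were called in uninjured BALF against media, beside 0.868% of all genes, with 0 at an unadjusted p under 0.05 and 0 by DESeq2. There the log2 fold change of Kdr was -0.26 ± 0.33. The difference between this Kdr change at 24 h and that at 6 h was tested and was not called, nor was that of any other member. Injured and uninjured BALF were set against the same media libraries, so their values are not independent. The median log2 fold change of the 10 genes with injured BALF was 0.55 at 6 h and 0.90 at 24 h, against -0.0065 and -0.0073 over all genes. With uninjured BALF it was 0.67 at 6 h and 0.18 at 24 h, against -0.0073 and -0.0040. The medians of 11 macrophage genes with injured BALF were 0.56 at 6 h and 0.87 at 24 h, with 1 and 4 called higher. Over all genes 13.9% were called higher at 6 h and 11.5% at 24 h. The part of macrophage transcripts in the endothelial values was not tested. Injured BALF had no late library at either time, while media had 1 of 6 at 6 h and 2 of 6 at 24 h, and the part of these in the medians was not tested. Pdgfrb, the receptor used to select the cells, was lower with injured BALF as well, at -0.70 ± 0.16 at 6 h (adjusted p = 0.0018) and -0.65 ± 0.16 at 24 h (0.00437). With uninjured BALF it was lower at 6 h (-0.58 ± 0.16, adjusted p = 0.0127) and stood at -0.29 ± 0.16 at 24 h (adjusted p = 0.527).

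**Figure D4:**
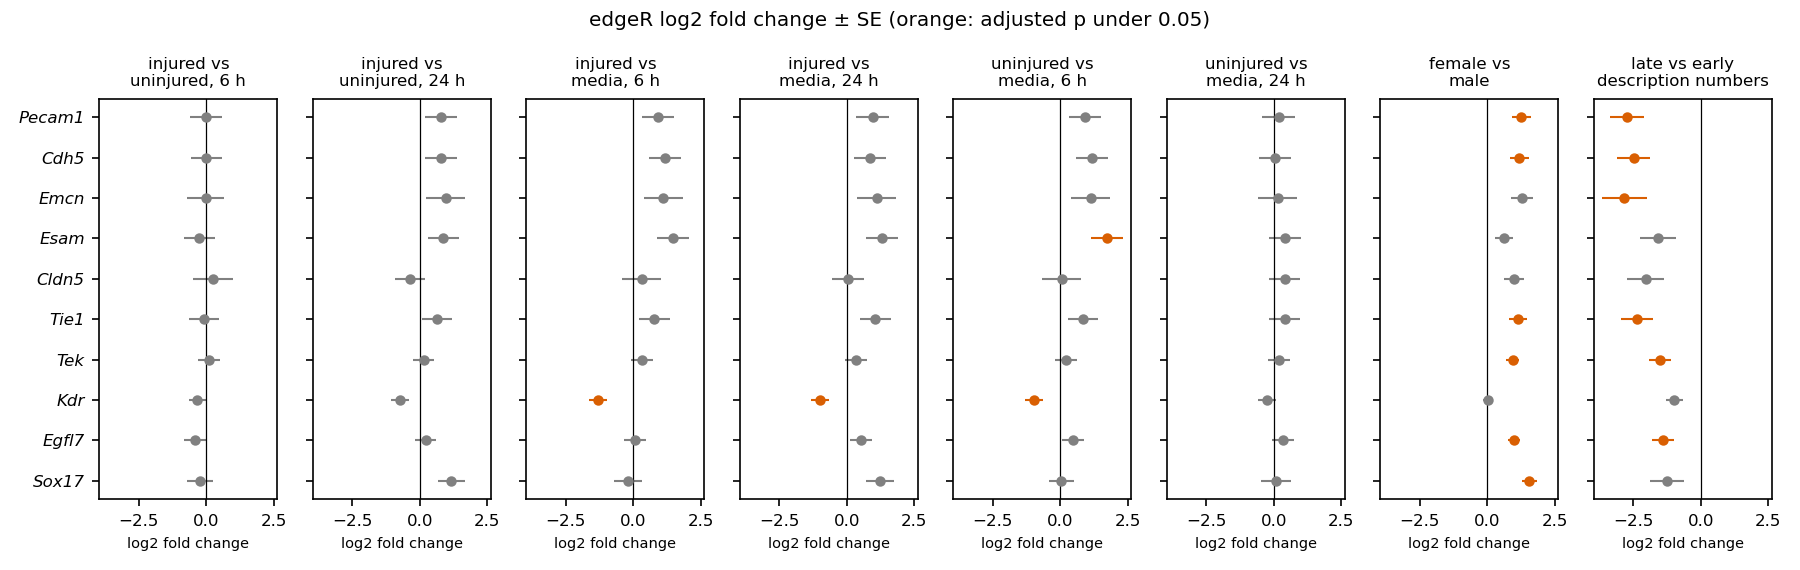
Log2 fold changes (points) with standard errors (bars) of the 10 genes in 8 comparisons by edgeR; orange marks an adjusted p under 0.05. Kdr is lower in 3 of the 4 comparisons with media, Esam is higher in 1, and 6 genes each differ between the sexes and between late and early description numbers.

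Between 24 h and 6 h, 0 of 10 genes were called within injured BALF (27% of all genes called), uninjured BALF (30.7%) or media (6.84%). At an unadjusted p under 0.05 there were 0 in injured BALF, 2 in uninjured BALF and 1 in media. DESeq2 called 0, 1 and 0, the 1 being Esam in uninjured BALF. Cldn5 was the member with the largest positive value in all 3 treatments, at 0.93 ± 0.65 in injured BALF, 1.55 ± 0.64 in uninjured BALF (adjusted p = 0.0659) and 1.204 ± 0.659 in media. Without the 4 late libraries the value in uninjured BALF was 1.78 (adjusted p = 0.0343). Cldn5 had only 0 to 46 counts per library. At 24 h 1 female library was set apart in each treatment, at 0.908 CPM in injured BALF, 1.48 CPM in uninjured BALF and 1.25 CPM in media. The median of Cldn5 at 6 h and 24 h was 0.114 and 0.217 CPM in injured BALF. It was 0.1535 and 0.3665 CPM in uninjured BALF, and 0.143 and 0.151 CPM in media. Esam stood at -1.47 ± 0.59 in uninjured BALF (adjusted p = 0.0561), where male library 3 was late at 24 h (0.525 CPM) and early at 6 h (26.5 CPM). Kdr in media lay at -0.72 ± 0.33 (adjusted p = 0.173).

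In 6 of the 10 genes the female libraries held higher levels than the male ones, where 5.35% of all genes differed and 2.31% were higher in females. Sox17 was higher by 1.57 ± 0.29 (log2, adjusted p = 0.00103), Egfl7 by 1.00 ± 0.24 (0.0092), Tek by 0.94 ± 0.23 (0.0128), Pecam1 by 1.26 ± 0.35 (0.0286), Cdh5 by 1.195 ± 0.345 (0.0379) and Tie1 by 1.13 ± 0.33 (0.0386). Emcn, at 1.28 ± 0.42, missed the threshold (adjusted p = 0.0748), as did Cldn5 and Esam, and Kdr stood at 0.02 ± 0.19 (adjusted p = 0.979). The summed level of the 10 genes had a median of 83.2 CPM in the 18 female libraries and 32.4 CPM in the 18 male ones, but the ranges overlapped (18.2 to 169.9 CPM and 9.87 to 209 CPM), and the highest 3 values of all were male. Sox17, Egfl7 and Tek kept the call without any 1 of the 36 libraries. Only these 3 were called without male injured BALF replicate 2 at 6 h or at 24 h, male uninjured BALF 6 h replicate 1, female media replicate 3 at 6 h or at 24 h, or male media 24 h replicate 3. With numbers 1 and 2 summed, Sox17 alone was called. Sex and the cultures that the cells of each sex came from cannot be told apart. The test treats the 36 libraries as independent, so its p-values may be too small if same-numbered libraries share a culture. Most of the late libraries are male, and this fit had no term for them.

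The 4 late libraries were lower than early libraries of their own groups in 6 of the 10 genes, where again 5.35% of all genes were called and 3.01% were lower. In the male groups among these, the late library is number 3 and the early ones are numbers 1 and 2. Late description number and library number cannot be told apart there. On the log2 scale Pecam1 stood at -2.74 ± 0.62 (adjusted p = 0.00815), Tie1 at -2.37 ± 0.59 (0.0168), Cdh5 at -2.49 ± 0.62 (0.0171), Tek at -1.51 ± 0.40 (0.0233), Egfl7 at -1.41 ± 0.41 (0.0411) and Emcn at -2.84 ± 0.83 (0.0429). Kdr, at -0.99 ± 0.32 (adjusted p = 0.0632), and Cldn5, Esam and Sox17 were also lower in value but missed the threshold. None of the 10 was called without female media 24 h replicate 2 or without male media 6 h replicate 3, and 2 or 3 were called without male uninjured BALF 24 h replicate 3, male media 24 h replicate 3 or male media 6 h replicate 1. Macrophage transcripts moved the same way, with 9 of 11 tested genes lower and a summed level of 12 genes of 18.0 to 22.3 CPM in the late libraries, against 40.3 to 92.4 CPM in the early ones. Their part in the endothelial values was not tested.

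Other endothelial genes were read from lists of markers. Of 20 further pan-endothelial genes, none was called in injured against uninjured BALF at either time, where 3.43% of all genes were called at 6 h and 4.42% at 24 h. In female against male libraries 14 were higher and 0 lower (2.31 and 3.03% of all genes), and in late libraries 6 were lower and 0 higher (3.01 and 2.34%). Ramp2, part of the adrenomedullin receptor, was higher in females by 1.12 ± 0.21 (adjusted p = 0.00103), and Robo4, an endothelial guidance receptor, was lower in late libraries (log2 -3.52 ± 0.49, adjusted p = 3.94e-05). The median log2 fold change of these 20 genes was 1.11 for sex and -1.44 for late numbers, against 1.07 and -1.81 in the 10 members and 0.0085 and 0.0076 over all genes. S1pr1, the receptor of sphingosine 1-phosphate, was the only 1 of the 20 that rose against media at 6 h, by 1.13 ± 0.24 with injured BALF, where 13.9% of all genes rose, and by 0.98 ± 0.24 with uninjured BALF, where 10.6% did. At 24 h Notch4, a receptor of the Notch family, rose by 1.27 ± 0.31 (adjusted p = 0.0038) and Cyyr1 by 1.56 ± 0.57 (adjusted p = 0.0465) with injured BALF against media, beside 11.5% of all genes, and 0 of the 20 were called with uninjured BALF. Ptprb, the endothelial phosphatase VE-PTP that acts on TIE2, had an r of 0.0430 with the mean of the members, read as described below. It lay at 25.95 to 65.9 CPM in injured BALF, 41.2 to 89.9 CPM in uninjured BALF and 40.7 to 135 CPM in media at 6 h.

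Markers of lung vessel types ranged widely. The capillary genes Car4, Gpihbp1 and Cd300lg had 0 counts in 32, 24 and 35 of the 36 libraries, the venule gene Ackr1 in 24 and the lymphatic gene Ccl21a in all 36. Plvap, which forms the diaphragms of fenestrated and caveolar endothelium, was present at 0.448 to 15.1 CPM, and Vwf, von Willebrand factor, at 0.326 to 7.48 CPM. The arterial genes Gja4, Gja5, Hey1, Dll4, Bmx and Sema3g stayed at or below 4.30 CPM in every library. Other genes of these lists were well detected. Capillary Apln lay at 2.62 to 66.2 CPM, Prx at 7.27 to 22.2 CPM and arterial Efnb2 at 51.8 to 117 CPM. Venous Nr2f2 lay at 40.6 to 183.5 CPM, Ephb4 at 47.3 to 85.7 CPM and lymphatic Flt4 at 9.18 to 27.0 CPM. Lymphatic Prox1 lay at 0.367 to 2.89 CPM and Lyve1 at 0.079 to 3.28 CPM. Read as described below, r with the mean of the members was 0.935 for Vwf, 0.704 for Apln, 0.591 for Plvap and 0.52 for Ephb4. It was -0.131 for Flt4, -0.291 for Prx, -0.379 for Nr2f2 and -0.465 for Efnb2. Which cells made these transcripts was not tested. Among early libraries, Plvap lay at 7.70 to 8.38 CPM in the male libraries numbered 3, 2.11 to 4.36 CPM in the male ones numbered 1 or 2 and 5.54 to 15.1 CPM in the female ones.

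Some ligands and partner receptors of VEGFR2 and TIE2 changed with injured BALF. Of 13 such genes, 2 rose and 1 fell with injured relative to uninjured BALF at 6 h, and 1 rose and 3 fell at 24 h. Over all genes 1.97% rose and 1.46% fell at 6 h, and 2.38% rose and 2.04% fell at 24 h. Vegfc, a ligand of VEGFR2 and VEGFR3, rose by 1.47 ± 0.20 at 6 h (adjusted p = 2.75e-05) and by 1.05 ± 0.20 at 24 h (0.00188). Flt1, the VEGF decoy receptor VEGFR1, rose by 0.69 ± 0.18 at 6 h (0.0271). Its lowest, median and highest levels at 24 h were 30.7, 48.3 and 61.2 CPM in injured BALF and 42.0, 72.5 and 84.1 CPM in uninjured BALF, and the effect of injury at 24 h minus that at 6 h was -1.21 ± 0.26 (adjusted p = 0.0349, 0.239% of all genes called). The coreceptor Nrp1 fell at both times (-0.62 ± 0.12 at 6 h, adjusted p = 0.00132, and -0.55 ± 0.12 at 24 h, 0.00482). Angpt2, a context-dependent TIE2 ligand, fell at 24 h (-0.84 ± 0.22, adjusted p = 0.0252). Tie1 and Tek did not pass in any of these comparisons, and no count over the 13 genes was tested against other genes.

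Adhesion molecules that endothelium displays on activation differed by treatment. All 4 of Sele, Selp, Vcam1 and Icam1 were higher in injured than in uninjured BALF at both times, where 1.97% of all genes were higher at 6 h and 2.38% at 24 h. E-selectin (Sele), which in mice is made largely by activated endothelium, was named here after its values were seen. At 6 h it lay at 8.05 to 18.0 CPM in injured BALF, 1.1 to 4.52 CPM in uninjured BALF and 0.292 to 3.62 CPM in media, so injured BALF did not overlap the other 2. At 24 h it lay at 2.06 to 6.20 CPM in injured BALF, 0.112 to 2.88 CPM in uninjured BALF and 0.0408 to 1.40 CPM in media. Its log2 fold change in injured against uninjured BALF was 2.44 ± 0.46 at 6 h (adjusted p = 0.00131) and 2.09 ± 0.49 at 24 h (adjusted p = 0.0105). The 4 late libraries held 0.0408 to 0.292 CPM of Sele. P-selectin (Selp) was higher by 2.38 ± 0.31 at 6 h and 2.26 ± 0.31 at 24 h. Icam1 was higher by 2.73 ± 0.20 and 0.98 ± 0.19, and Vcam1 by 1.68 ± 0.15 and 1.04 ± 0.15, at 6 h and 24 h. Icam1 and Vcam1 are also made by stromal cells. In the 12 early male libraries numbered 1 or 2, Selp lay at 6.02 to 68.4 CPM, with a median of 11.1 CPM. In these libraries the endothelial members summed to 29.0 to 37.99 CPM. These levels are not per length of transcript, so they do not rank Selp against the members. Read as described below, r with the mean of the members was 0.742 for Sele, 0.74 for Icam1, 0.634 for Selp and 0.401 for Vcam1. Which cells made the Selp transcripts was not tested.

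Among libraries of the same group, the members varied together to different degrees. Likeness was read as Pearson's r of log2(CPM + 0.5) after the mean of each of the 12 groups was subtracted, between each member and the mean of the other 9, over the 32 early libraries. It was 0.982 for Pecam1, 0.973 for Tie1, 0.969 for Esam, 0.958 for Cdh5, 0.953 for Emcn, 0.883 for Egfl7, 0.784 for Tek, 0.740 for Kdr, 0.586 for Sox17 and 0.0784 for Cldn5. The libraries share numbers and form bands by number, which overlap in females, so these values describe that banding. Without the 2 libraries farthest from the median, the value for Sox17 was 0.380, for Kdr 0.708 and for Pecam1 0.973. Spearman's rho was 0.956 for Pecam1 and 0.595 for Kdr. Cldn5 and Sox17 were counted thinly, at 262 and 438 counts over all 36 libraries, and the part of counting error in their r was not tested.

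Of 12713 genes of at least 1 CPM on average, the 10 that were not members and were most like the mean of the members were Cd93, Klra4, Bnc1, Krt18, Ezr, Akap5, Itgb4, Msln, Krt8 and Upk3b, at r of 0.960 to 0.974. Cd93 is an endothelial surface protein. Bnc1, Krt8, Krt18, Msln and Upk3b are known from mesothelium, the lining of the lung surface, and keratins 8 and 18 from simple epithelium in general. With the 4 late libraries included, Cd93 stayed at 0.971 while Klra4 stood at 0.321 and Msln at 0.726. Among the genes of the marker lists, r was lowest for Nrp2 at -0.837 and for Pdgfrb and Cspg4 at -0.828 each. They ranked 12637, 12626 and 12625 from the highest of the 12713 genes, so others lay lower.

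Mesothelial transcripts were highest in the same 3 male libraries as the endothelial sum. The summed level of 6 mesothelial genes (Msln, Upk3b, Lrrn4, Wt1, Krt19 and Gpm6a) was 119 to 151 CPM in the 3 early male libraries numbered 3 and 17.9 to 33.7 CPM in the 12 male ones numbered 1 or 2. It was 23.7 to 72.7 CPM in the 6 early female libraries numbered 3 and 12.2 to 58.3 CPM in the 11 female ones numbered 1 or 2. In the 4 late libraries it was 14.1 to 47.9 CPM. Between late and early numbers 0 of the 6 genes were called, where 5.35% of all genes were called. Of the 6 log2 fold changes 0 were positive, and their median was -1.08, against -1.81 in the 10 endothelial genes. By treatment at 6 h the sum ran from 17.8 to 136 CPM in injured BALF, 19.8 to 151 CPM in uninjured BALF and 14.1 to 64.2 CPM in media. Between the sexes 0 of the 6 were higher and 1 was lower in females, against 6 higher and 0 lower of the 10 endothelial genes. Over all genes 2.31% were higher and 3.03% lower in females, and no count over the 6 genes was tested against other genes. The part of mesothelial cells in the endothelial values was not tested.

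**Figure D5:**
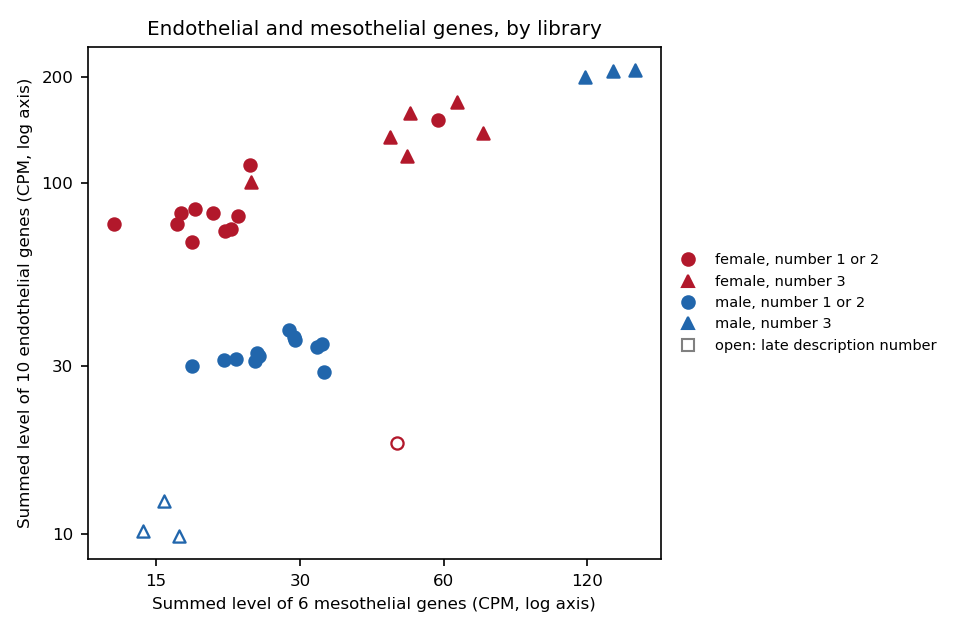
Summed level of the 10 endothelial genes against that of 6 mesothelial genes (both CPM, log axes) in each of the 36 libraries, with symbols for sex, library number and description number. The 3 early male libraries numbered 3 are highest on both axes, and the early female libraries numbered 1 or 2 lie above the male ones of those numbers on the endothelial axis at a like mesothelial level.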

How the data were processed

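RNA of cultured mouse lung pericyte-like cells was sequenced from 36 libraries, and the authors deposited whole-number counts per gene. STAR 2.5.2b, RSEM 1.2.31, DESeq2 and GRCm38 are named, per the submitters' processing notes, without their roles, so the counts may be rounded estimates. Of 48795 identifiers, 48349 (99.1%) matched GENCODE symbols. CPM used raw totals.

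Tests used edgeR 4.0.16 under R 4.3.3 (TMM, filterByExpr, quasi-likelihood, Benjamini-Hochberg) over 15901 genes and all 36 libraries in 12 groups, averaging both sexes, with 24 residual degrees of freedom. Errors are the fold change over the root of F. DESeq2 1.42.0, other filters, a replicate block, a term for late description numbers and left-out libraries were alternatives. Steps were tested on simulated data. Members and gene lists were chosen with earlier results of these data known. Named genes are the members, at most 3 per list and comparison (called and of lowest p, otherwise of highest mean CPM), and the 10 most like the members. Markers at or near 0, the pericyte markers and Sele, Ptprb, Plvap, Nrp2 and Vwf were named after their values were seen where this rule does not reach them. Every pair of same-numbered libraries passed an r of 0.1 in injured against uninjured BALF at 6 h (0.540 to 0.820) and in 24 against 6 h of injured BALF (0.356 to 0.714). In the other 7 comparisons at least 1 pair did not, with 5 of 6 passing in 24 against 6 h of media.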

Additional observations from a re-analysis of the deposited data

Results flagged for a closer look

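Of 66 sets of 6 libraries (10 genes and their sum in each treatment and time), 11 had a highest library set apart from the other 5 by more of the range than Dixon's 95% critical value allows. Chance alone gives about 1 in 20 when the values of a set come from 1 normal population. These sets pool the sexes, some hold late libraries, and the genes vary together, so the 11 cannot be read against that rate. In female media 24 h replicate 3 the values set apart were Cldn5 at 1.25 CPM, Tie1 at 12.7 CPM, Tek at 5.33 CPM and Egfl7 at 10.5 CPM. In female media 6 h replicate 3 they were Emcn at 66.5 CPM and Egfl7 at 9.40 CPM. Esam stood apart in male injured BALF replicate 3, at 24.0 CPM at 6 h and 22.5 CPM at 24 h. Cldn5 stood apart at 0.480 CPM in female injured BALF 6 h replicate 1, at 0.908 CPM in female injured BALF 24 h replicate 3 and at 1.48 CPM in female uninjured BALF 24 h replicate 1.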

How the results depend on the processing

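No member call reversed its direction under any alternative. With another size factor or a 1 CPM filter, all 12 counts of called members stayed within 1.5 times. In injured BALF against media at 6 h the count was 2 by DESeq2 and in a fit of only the compared groups, and 0 with libraries numbered 1 and 2 summed, as also at 24 h (0). In uninjured BALF against media at 6 h (2 called) the count was 1 with a replicate block, with a term for late description numbers, without the 4 late libraries (Kdr each time) and with only the groups compared (Esam), and 0 with numbers summed. The block changed no other count by over 1.5 times, and gave 7 members for sex and 9 for late numbers. All 6 pairs passed an r of 0.1 in 2 of 9 comparisons. For 24 h against 6 h in uninjured BALF (0 called) the count was 1 without a low-count filter, by DESeq2 and with only the groups compared (Esam), and 1 with the late term, without the late libraries or with block and late term together (Cldn5). Block and late term together also gave 1 in injured against uninjured BALF at 24 h (Kdr) and 1 for 24 h against 6 h in media (Cdh5, 0.66, adjusted p = 0.0216). For sex, summing the numbers gave 1. The cause of these moves was not tested. Leaving out each library gave 0 to 0 members in both comparisons of injured with uninjured BALF, in uninjured BALF against media at 24 h, in 24 h against 6 h within injured BALF and media, and in the difference of the injury effects. It gave 1 to 2 in injured BALF against media at 6 h and 0 to 1 at 24 h, 0 to 1 in uninjured BALF against media at 6 h, 0 to 2 for time in uninjured BALF, 3 to 7 for sex and 0 to 7 for late numbers. The 2 for time in uninjured BALF was among 4 libraries whose absence changed the count, namely female 24 h replicate 2, male 24 h replicate 3 and male 6 h replicates 1 and 2. Depth limits Cldn5 (0 to 46 counts per library) and Sox17 (1 to 26) most.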
